A study of Mus musculus with 20 samples.

Results

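The clustered histone genes are the genes whose symbols begin with Hist1h, Hist2h, Hist3h or Hist4h, the older mouse names that give the cluster, the histone type and a letter for the copy. They were chosen by symbol, with earlier results at 5 days after injection in view, and 55 of the 20375 genes in the authors' deposited tables are members. There are 5 H1, 13 H2A, 14 H2B, 11 H3 and 12 H4 genes, of which 54 are protein-coding and 1, Hist3h2bb-ps, is a processed pseudogene in GENCODE M21. The annotation holds another 15 such genes that the authors' tables do not list, so values for those copies are unknown.

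RNA was measured by sequencing in the medial prefrontal cortex of C57BL/6 mice in a study of a microglia depletion model. One pair of groups received PBS or CDS and was taken at 5 days post injection (5 dpi), at postnatal day 47 and 6 weeks of age. The other pair received PBS or CDS and was taken at postnatal day 84, at 12 weeks of age and 6 weeks after injection. Each of the 4 groups held 5 samples, the injection was into the prefrontal cortex itself, and the labels do not spell out CDS. The labels number samples only within a group and do not name the animals, so the q-values measure the spread between these samples. All 4 markers of cortical excitatory neurons looked up were listed in the tables, as were markers of other cell types. A listing without levels does not check the tissue label.

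For each gene the tables list how far CDS lies from PBS, as a log2 fold change, together with a q-value. They hold no value per sample, so whether the samples of a gene overlap between groups cannot be shown, and depth per sample is unknown. A gene is called higher or lower where the authors' q was under 0.05. Errors are standard errors implied by the deposited fold change and q. In bulk tissue, fewer cells of a type and less RNA per cell cannot be told apart.

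Histones are the proteins around which DNA is wrapped. H2A, H2B, H3 and H4 form the core of the nucleosome and H1 binds the linker DNA between nucleosomes. The clustered genes are the replication-dependent ones: they are transcribed chiefly in S phase, when new DNA has to be packaged, and most of their mRNAs end in a conserved stem-loop in place of a poly(A) tail. Stem-loop binding protein, Slbp, holds this hairpin during 3′ end processing and translation, and the mRNAs are degraded when replication ends. Some clustered genes also give polyadenylated mRNAs in cells that no longer divide. Replacement histones are encoded outside the clusters, and many but not all of them are made throughout the cell cycle. Libraries made from total RNA after ribosomal depletion, as here, can hold mRNAs of both kinds.

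The stem-loop is shown because it is the element that defines these mRNAs and because its letters differ between histone types. A hairpin was found after the stop codon in the annotated transcript of 37 of the 55 members. The sequences below are transcript strands written as DNA, 5′ to 3′, with the 16 bases of the hairpin in capitals and 5 bases on each side in lower case.
Hist1h3b: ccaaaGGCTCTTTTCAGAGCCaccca
Hist1h2ag: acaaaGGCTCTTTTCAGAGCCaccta
Hist1h1e: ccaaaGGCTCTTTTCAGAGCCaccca
Hist1h3c: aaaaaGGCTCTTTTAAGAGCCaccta
Hist1h3g: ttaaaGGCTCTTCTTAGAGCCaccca
Hist1h4j: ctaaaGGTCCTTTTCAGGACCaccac
Hist1h4i: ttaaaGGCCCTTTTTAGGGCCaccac

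In GENCODE M21 on GRCm38 the hairpin of Hist1h3b lies at chr13:23752820-23752835 on the plus strand, and that of Hist1h4j at chr13:21735437-21735452 on the same strand. The hairpin of Hist1h1e lies at chr13:23621782-23621797 on the minus strand. The form carried by Hist1h3b, Hist1h2ag and Hist1h1e was the commonest, found in 19 members of the types H1, H2A, H2B and H3. Counting from 1 at the 5′ end of the hairpin, and with that form first, the form of Hist1h3c differs by C10A and is shared by 5 members of H2B and H3. Hist1h3g differs by T8C and C10T. All 11 hairpins found in H4 genes carry T4C and A13G, which change both sides of the stem; Hist1h4j has C3T and G14A besides, and Hist1h4i has C10T besides. Members with the commonest form ranged from -0.24 to 2.19 in log2 fold change at 5 dpi in the authors' deposited table, and 4 of the 19 were called. The identical hairpin and flanks of Hist1h3b and Hist1h1e thus stand on genes with values of 2.19 and 0.05.

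At 5 dpi, 15 of the 55 members were higher in CDS than in PBS cortex and 0 were lower in the authors' deposited table. That is 27.3% of the members, beside 5.92% of all 20375 genes called in either direction, 2.75% called higher and 3.18% called lower. The 5 dpi values led to these genes being singled out, so they are given as a description and support nothing here. The median log2 fold change of the members was 0.32, with quartiles of 0.11 and 0.69, beside -0.02 over all genes. A value above 0 was listed for 48 of 55 members, against 45.0% of all genes. The called members differed 1.51-fold to 5.28-fold, and 10 of them were at least 2-fold higher, among 104 such genes in the whole table.

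**Figure D1:**
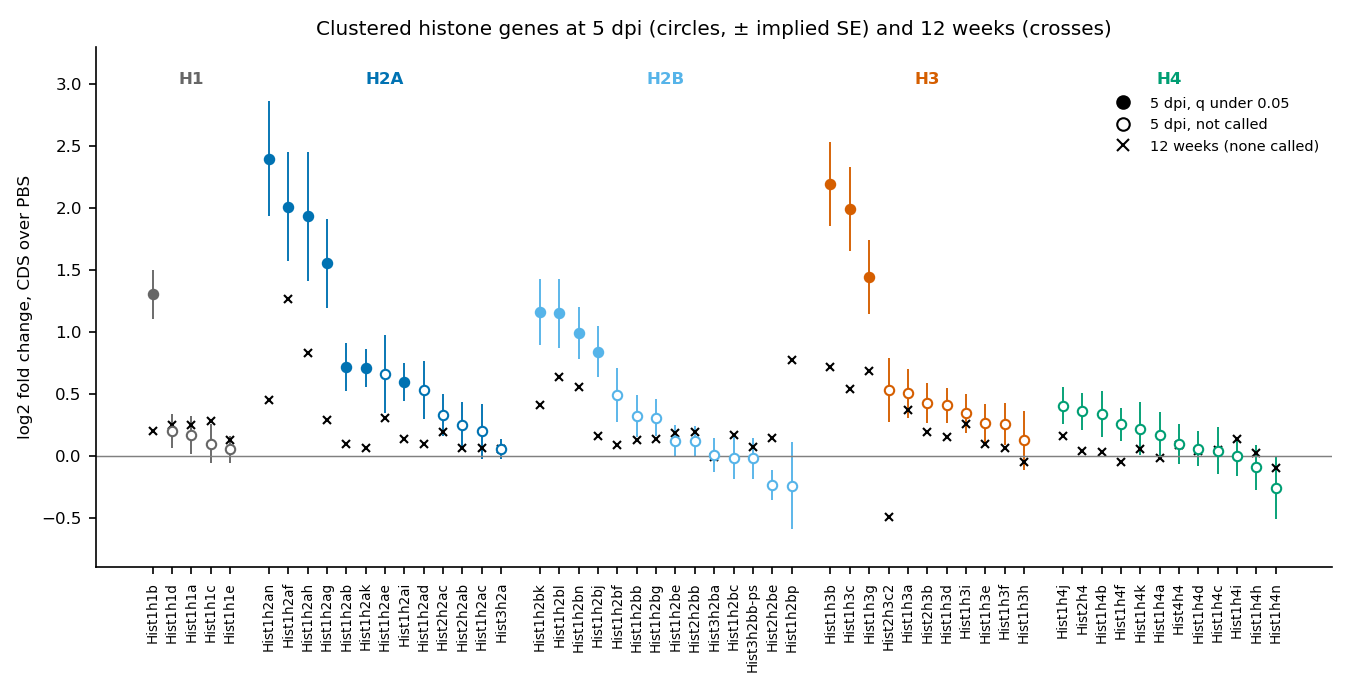
Log2 fold change of CDS over PBS at 5 dpi (circles) and at 12 weeks (crosses) for the 55 clustered histone genes, grouped by histone type. Each circle is 1 gene, filled where the authors' q was under 0.05, and each bar is the implied SE on either side of it. At 5 dpi filled circles appear in H1, H2A, H2B and H3 and none in H4, whose highest value is 0.40. No gene was called at 12 weeks.

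Among the H1 genes, 1 of 5 was called. Hist1h1b, which encodes the linker histone H1.5 (chr13:21779883-21780625, minus strand), was at 1.30 in the authors' deposited table (implied SE 0.20, q = 1.21e-08), a 2.47-fold difference and the smallest q of all members. The other 4 linker genes lay between 0.05 for Hist1h1e and 0.20 for Hist1h1d, each with an SE of 0.11 to 0.15, and were not called. Hist1h1b shared none of its transcript's 50-base stretches with another gene, as did the uncalled members Hist1h1a, at 0.17, and Hist2h2be, at -0.24 (the authors' deposited table).

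H2A, which pairs with H2B in the nucleosome core, held the most calls, 7 of 13, and all 13 H2A members had a value above 0. Hist1h2an (chr13:21786826-21787218, minus strand) had the highest value of all members, 2.40 in the authors' deposited table (implied SE 0.46, q = 2.86e-05), a 5.28-fold difference. Hist1h2af (chr13:23533906-23534304, plus strand) followed at 2.01 with an SE of 0.44 (q = 0.000403, the authors' deposited table). Hist1h2an, Hist1h2af and Hist1h2ah have annotated models that end at or within 2 bases of the stop codon, and the largest implied SEs of all members. Hist1h2ah was at 1.94 with an SE of 0.52 (q = 0.00758) and Hist1h2ag at 1.55 with an SE of 0.36 (q = 0.00113) in the authors' deposited table. Hist1h2ab, Hist1h2ak and Hist1h2ai were called at smaller values, 0.72, 0.71 and 0.60, with SEs of 0.20, 0.15 and 0.15 in the authors' deposited table (q = 0.00966, 0.000224 and 0.00365). The uncalled H2A members of Hist1 were Hist1h2ae at 0.66 with an SE of 0.32, Hist1h2ad at 0.53 with an SE of 0.24 and Hist1h2ac at 0.20 with an SE of 0.22 in the authors' deposited table. The copies of Hist2, Hist2h2ac and Hist2h2ab, were at 0.33 and 0.25, and were not called either. The lowest H2A value was that of Hist3h2a, 0.06 with an SE of 0.08 (q = 0.777, the authors' deposited table).

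H2B, the partner of H2A, had 4 of 14 members called and a median of 0.22. Hist1h2bk and Hist1h2bl lay close together, at 1.16 and 1.15 with SEs of 0.27 and 0.28 in the authors' deposited table (q = 0.00112 and 0.00171). Hist1h2bn was at 0.99 with an SE of 0.21 (q = 0.000186) and Hist1h2bj at 0.84 with an SE of 0.21 (q = 0.00279) in the authors' deposited table. Of the uncalled members, Hist1h2bf was highest at 0.49 with an SE of 0.22, followed by Hist1h2bb at 0.32 and Hist1h2bg at 0.31 in the authors' deposited table. Hist1h2be and Hist2h2bb were both at 0.12, and Hist3h2ba, Hist1h2bc and the pseudogene Hist3h2bb-ps lay between -0.02 and 0.01. The type also held values further below 0: Hist1h2bp was lowest at -0.24 with an SE of 0.35, and Hist2h2be, an H2B variant known from olfactory neurons, was at -0.24 with an SE of 0.12 (q = 0.775 and 0.265, the authors' deposited table). Neither was called.

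H3, whose tail carries many of the modifications that mark active and silent chromatin, had 3 of 11 members called and a median of 0.43. Hist1h3b (chr13:23752267-23752886, plus strand) was at 2.19 in the authors' deposited table (implied SE 0.34, q = 3.11e-08). Hist1h3c was at 1.99 with an SE of 0.34 (q = 9.29e-07) and Hist1h3g at 1.45 with an SE of 0.30 (q = 0.000135) in the authors' deposited table. These correspond to 4.58-fold, 3.97-fold and 2.73-fold. The remaining H3 genes spread from 0.13 for Hist1h3h, with an SE of 0.24, to 0.53 for Hist2h3c2, with an SE of 0.26, in the authors' deposited table. Hist1h3a was next below at 0.51 with an SE of 0.20, and Hist1h3i, Hist1h3e and Hist1h3f were at 0.34, 0.26 and 0.26 in the authors' deposited table.

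H4, which pairs with H3, had 0 of 12 members called by the authors' q, and 2 of 12 with an unadjusted p, recovered from q, under 0.05. Its values ran from -0.26 for Hist1h4n, with an SE of 0.25, to 0.40 for Hist1h4j, with an SE of 0.15, and their median was 0.13 (the authors' deposited table). Next to Hist1h4j came Hist2h4 at 0.36 with an SE of 0.15 and Hist1h4b at 0.34 with an SE of 0.18 in the authors' deposited table. Hist1h4f, Hist1h4k and Hist1h4a lay between 0.17 and 0.26, and Hist4h4, Hist1h4d, Hist1h4c, Hist1h4i and Hist1h4h between -0.09 and 0.09. Beside 5.92% of all genes called in either direction and 2.75% called higher, 0 of 12 says little. Whether H4 differs from the other types was not tested. Across all types, the members just inside the threshold were Hist1h2ah and Hist1h2ab, at the q-values given above. Those just outside it were Hist1h3d at 0.41 (q = 0.056), Hist1h4j at 0.40 (q = 0.0864) and Hist2h3b at 0.43 (q = 0.0975) in the authors' deposited table.

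The 15 called members all lie in the Hist1 cluster of 44 genes (chr13:21715763-23764406), of which they are 34.1%. None of the 7 genes of Hist2 (chr3:96219865-96270132), the 3 of Hist3 (chr11:58948920-58956830) or the single Hist4 gene (chr6:136801553-136804415) was called. Of all genes 5.92% were called in either direction and 2.75% were called higher, so 0 calls among so few genes says little. The median of Hist2, 0.33, was close to that of Hist1, 0.34, while that of Hist3 was 0.01. Splitting Hist1 wherever neighbouring members lay over 150000 bases apart gave 3 segments. The first segment, 116 kb long, had 6 of 12 members called and a median of 0.50. The second, 8.51 kb long, had 4 of 5 called and a median of 1.16; the exception was Hist1h4i, at -0.005 with an SE of 0.16. The third, 233 kb long, had 5 of 27 called and a median of 0.26.

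**Figure D2:**
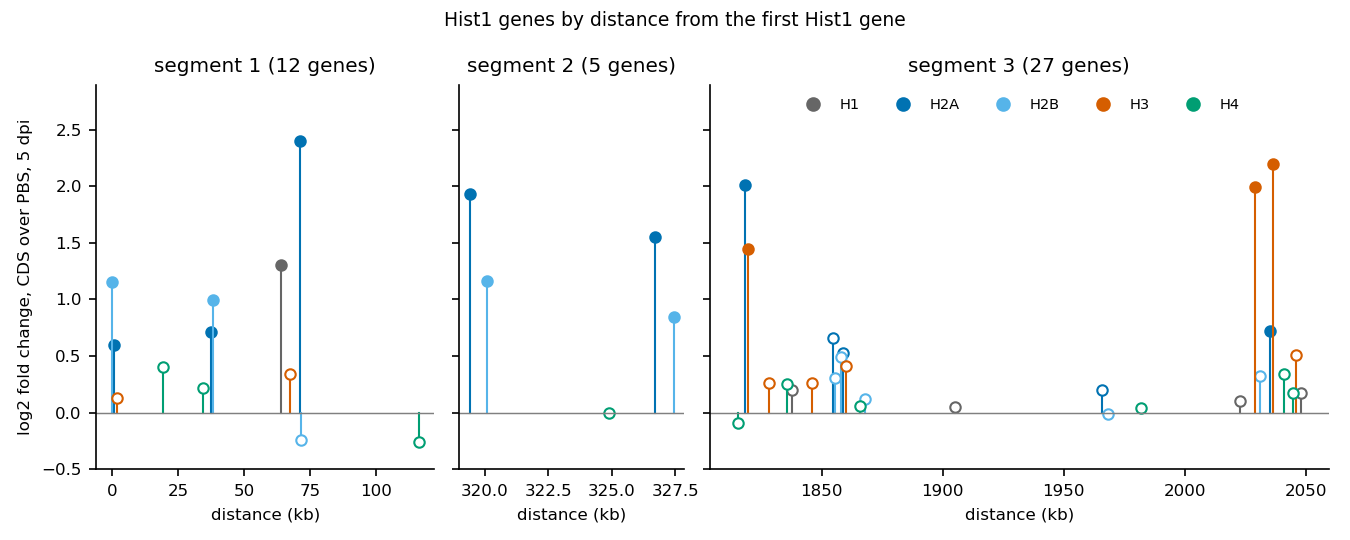
Log2 fold change of CDS over PBS at 5 dpi for the 44 Hist1 genes of chromosome 13, placed by distance in kb from the first gene in 3 panels with separate scales; colour gives the histone type and filled points have a q under 0.05. Called and uncalled genes stand side by side in each segment, and the H4 points, all open, reach no higher than 0.40.

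The non-histone genes that lie between the histone genes were looked up as well. In the authors' deposited table, 0 of 8 such genes within the Hist1 span were called at 5 dpi, beside 5.92% of all genes. Their values ran from -0.46 to 0.31, with a median of -0.05. The lowest was Hfe, which encodes a regulator of iron uptake and is the one such gene inside a segment, at -0.46 with an SE of 0.20 (q = 0.157, the authors' deposited table).

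Many H2A and H2B genes stand head to head, with their starts within 500 bases, and share the DNA between them. There are 10 such pairs. In 4 pairs both genes were called: Hist1h2ag with Hist1h2bj, Hist1h2ah with Hist1h2bk, Hist1h2ai with Hist1h2bl, and Hist1h2ak with Hist1h2bn. The H2A gene had the higher value in the first and second of these and the H2B gene in the others. In 1 pair the partners parted: Hist1h2an was at 2.40 and Hist1h2bp, whose start is 235 bases away, at -0.24 in the authors' deposited table. In the other 5 pairs neither gene was called. Over the 10 pairs Pearson's r between partners was 0.19 and Spearman's rho 0.31, and without the Hist1h2an pair they were 0.72 and 0.80 over 9; the points share libraries, a stretch of DNA and reads.

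At 12 weeks, in other samples, 0 of 55 members were called in the authors' deposited table, beside 0.191% of all genes called in either direction and 0.0933% called higher. The smallest q of a member was 0.41, and 3 members had an unadjusted p known to be under 0.05: Hist1h2af, Hist1h2bn and Hist1h3g. The other 52 shared the top q of 0.999997 with most of the table, which allows only that their p was at least 0.0134. For that reason the share of all genes with p under 0.05 is unknown, and the count of 3 members is a lower limit there. The count is complete only under 0.0134, where all 3 lie. That top q was shared by 20103 of all 20375 genes, and an excess among the members was not tested. An implied SE could be recovered at 12 weeks for these 3 members only. Values above 0 were listed for 49 of 55 members, against 49.0% of all genes, and the median was 0.14, beside -0.002 over all genes. Members share reads, libraries and normalization, so these 55 values are not independent.

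Hist1h2af was the highest member at 12 weeks, at 1.27 in the authors' deposited table (implied SE 0.40, q = 0.41), after 2.01 at 5 dpi. Hist1h2bn was at 0.56 with an SE of 0.20 (q = 0.703) and Hist1h3g at 0.69 with an SE of 0.27 (q = 0.924) in the authors' deposited table. The H3 gene of highest value, Hist1h3b, was at 0.72, the highest H1, Hist1h1c, at 0.28, and the highest H4, Hist1h4j, at 0.16. Hist1h2bp, at -0.24 at 5 dpi, was the highest H2B at 0.78. The lowest value belonged to Hist2h3c2, at -0.49 after 0.53. Neither change of side was tested, and neither gene was called at either time.

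All 15 members called at 5 dpi were above 0 at 12 weeks, the median being 0.45, with a range from 0.06 for Hist1h2ak to 1.27, in the authors' deposited table. Each of the 15 had a larger value at 5 dpi than at 12 weeks. They had been picked by their 5 dpi values, and the difference between times was not tested. Of the 40 members not called at 5 dpi, 34 were above 0 at 12 weeks, with a median of 0.10. Over the 55 members the values at the times had a Pearson's r of 0.65 and a Spearman's rho of 0.52, against 0.30 and 0.24 over all 20375 genes. The groups at each time had their own PBS samples, while the members share reads and gene structure at both times. By type, the 12-week medians were 0.25 for H1, 0.14 for H2A, 0.17 for H2B, 0.19 for H3 and 0.04 for H4.

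**Figure D3:**
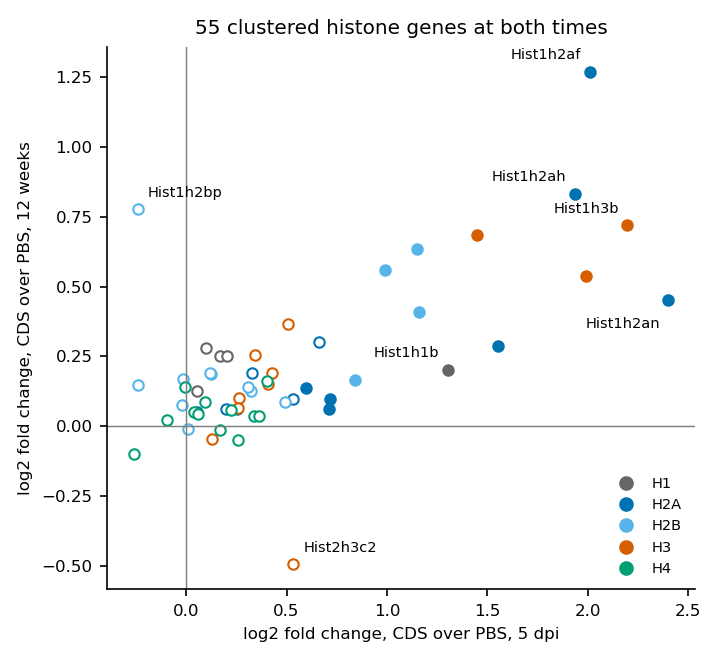
Log2 fold change of CDS over PBS at 12 weeks against 5 dpi for the 55 members, coloured by type and filled where called at 5 dpi. Filled points lie to the right and all above 0 on the 12-week axis, with Hist1h2af highest at 1.27; Hist1h2bp and Hist2h3c2 stand apart on opposite sides.

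The called members had short annotated 3′ ends. The longest 3′ UTR among the 15 was 114 bases, in Hist1h3c. The 22 members with a 3′ UTR of over 120 bases, a limit chosen after the values were seen, held 0 calls and a median of 0.15 at 5 dpi in the authors' deposited table. The 32 with at most 120 bases held all 15 calls and a median of 0.52. Of these 32, 24 shared over 50% of their 50-base stretches with another gene, against 2 of the 22. Short 3′ UTRs and shared stretches thus largely coincide here. Among the short models, 0 of 5 H4 genes were called. Of all genes, 5.92% were called in either direction and 2.75% higher. Counts of 0 of 22 and 0 of 5 are near those shares and say little. Over 54 members, Pearson's r between the value at 5 dpi and the UTR length was -0.31 and Spearman's rho -0.46; at 12 weeks they were -0.15 and -0.21. The models of 11 members, 6 of them called, stop at the stop codon, so a short model can also be an incomplete one, and its part in the result was not tested.

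**Figure D4:**
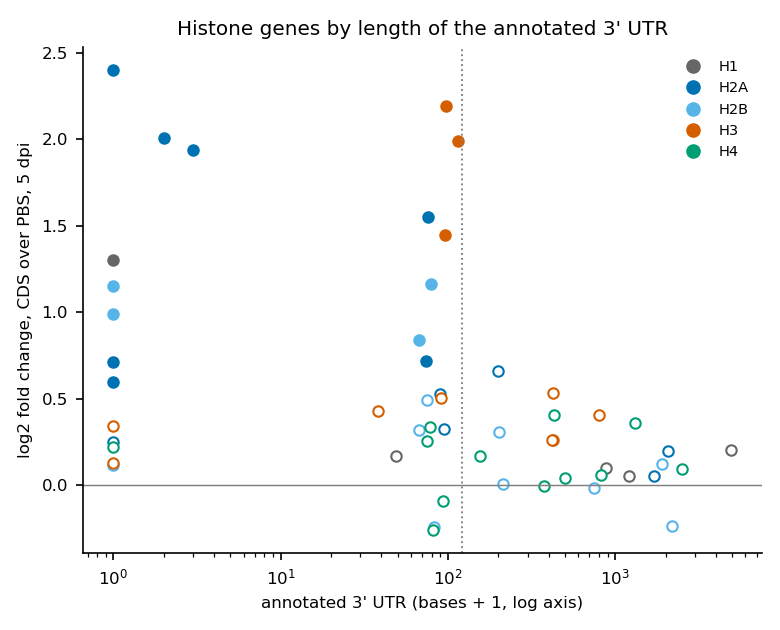
Log2 fold change at 5 dpi against the length of the annotated 3′ UTR (bases plus 1, log axis) for 54 members, coloured by histone type and filled where called; the dotted line marks 120 bases. All filled points lie left of the line, and points to its right reach no higher than 0.66.

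How firmly a single copy's value is known depends on how much of it is unique. Between members of equal coding length, the median identity of coding sequences was 97.2% in H2A, 94.8% in H2B, 97.6% in H3 and 93.9% in H4. The least alike pairs had 77.6%, 82.9%, 93.7% and 85.3% in the same order. No H1 members were of equal length, and H1 identity was not computed. A median of 49.5% of a member's 50-base stretches occurred in the transcript of another gene. The 26 members with over 50% so shared held 13 calls and a median of 0.57 at 5 dpi in the authors' deposited table. The 29 with at most 50% held 2 calls, Hist1h1b and Hist1h3c, and a median of 0.17. Their share of calls, 6.90%, was near the 5.92% of all genes called in either direction. The 2 calls were rises, however, and 2.75% of all genes were called higher. Of the 29, 23 had a value above 0, against 45.0% of all genes. The value of a single copy is therefore uncertain in every type that shares stretches, H3 included, where Hist1h3b shared 60.4%, Hist1h3g 54.1% and Hist1h3c 47.0%. The exons of 5 members overlap another gene on the same strand, such as Hist1h2be with Hist1h1e, and 16 overlap one on the other strand, and the sources used here do not say whether counting used the strand. The value at 5 dpi also moved with the implied SE, with an r of 0.77 and a rho of 0.55 over 55 members, and its part in the result was not tested.

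Promoters are shown because the letters before the start also differ by type. RefSeq promoters on GRCm38.p6 matched 49 of 55 members. The sequences are the 200 bases before the RefSeq start, which can differ from the GENCODE start, on the gene's strand. Capitals mark CCAAT, a site bound by the factor NF-Y, and TATAAA, which is the core of many basal promoters, on either strand. A motif that lies partly or wholly outside these 200 bases is not marked. The windows are chr13:21780626-21780825, minus strand for Hist1h1b; chr13:23752145-23752344, plus strand for Hist1h3b; chr13:21717428-21717627, plus strand for Hist1h3h, an uncalled relative of Hist1h3b; and chr13:21734834-21735033, plus strand for Hist1h4j, the H4 gene of smallest q.
Hist1h1b promoter: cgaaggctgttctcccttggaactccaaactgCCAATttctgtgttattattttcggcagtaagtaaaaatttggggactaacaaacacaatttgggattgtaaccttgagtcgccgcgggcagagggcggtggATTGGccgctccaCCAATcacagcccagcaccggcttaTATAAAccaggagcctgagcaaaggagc
Hist1h3b promoter: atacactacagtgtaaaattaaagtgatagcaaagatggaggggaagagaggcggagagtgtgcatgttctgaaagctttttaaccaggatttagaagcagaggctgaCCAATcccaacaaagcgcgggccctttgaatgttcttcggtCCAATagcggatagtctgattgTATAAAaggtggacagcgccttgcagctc
Hist1h3h promoter: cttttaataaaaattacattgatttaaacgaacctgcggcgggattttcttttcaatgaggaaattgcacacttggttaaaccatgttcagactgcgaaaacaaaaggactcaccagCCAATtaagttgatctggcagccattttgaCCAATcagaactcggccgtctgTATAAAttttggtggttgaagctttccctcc
Hist1h4j promoter: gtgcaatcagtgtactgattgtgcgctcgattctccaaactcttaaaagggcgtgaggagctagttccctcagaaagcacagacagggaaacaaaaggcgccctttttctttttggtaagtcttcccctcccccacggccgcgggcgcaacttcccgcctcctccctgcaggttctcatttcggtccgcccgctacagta

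CCAAT or its complement was found in the window from 250 bases before to 50 after the start of 41 of 49 members, or 83.7%, against 37.4% of all 32851 promoters. It was in all matched members of the other types, that is 5 H1, 13 H2A, 11 H2B and 9 H3 genes, and in 3 of 11 H4 genes. It was present in 15 of 15 called and 26 of 34 uncalled members, and the shortfall among the uncalled lay in H4. TATAAA was found in 63.3% of members and 13.6% of all promoters, with 8 of 15 called and 23 of 34 uncalled members holding it. Of 11 H4 genes 7 held TATAAA. Hist1h4j is among them, with its match partly or wholly outside the 200 bases shown above. The octamer ATTTGCAT, known from H2B promoters as a site for Oct-1, was found in 6 of 13 H2A, 4 of 11 H2B and no other members, and in 1.74% of all promoters. Windows of head-to-head H2A and H2B genes overlap, so 1 site of any motif can count for each partner. The octamer of Hist1h2ah and Hist1h2bk is such a site. None of these motifs contains another, both strands were searched, and a match is a description of the sequence.

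Genes that work with the clustered histones were looked up from lists made by role. Over all genes, 2.75% were called higher and 3.18% lower at 5 dpi. Of 11 replacement histone genes, 3 were higher and 0 lower at 5 dpi in the authors' deposited table, with a median of 0.14. These were Cenpa, the H3 of centromeres, at 0.71 with an SE of 0.16 (q = 0.000945), H2afx, phosphorylated at DNA breaks, at 0.47 with an SE of 0.10 (q = 0.000195), and H2afj at 0.39 with an SE of 0.09 (q = 0.00184), in the authors' deposited table. H3f3a and H2afz, which encode H3.3 and H2A.Z, were at -0.07 and 0.01 and were not called.

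Among 18 genes of histone transcription and 3′ processing, 1 was higher and 0 lower in the authors' deposited table, with a median of 0.03. This was E2f1, an activator of S phase genes, at 0.32 with an SE of 0.10 (q = 0.0207, the authors' deposited table). Cdk2, the kinase that acts on Npat, was at 0.60 with an SE of 0.21 (q = 0.0613). Npat itself, the coactivator of the histone clusters, was at -0.05 and Slbp at 0.03 in the authors' deposited table. Of 12 histone chaperones, 0 were called in the authors' deposited table, with a median of 0.03. With 5.92% of all genes called in either direction, counts of 1 of 18 and 0 of 12 are near that share. The highest chaperones were the assembly factors Asf1b at 0.78 with an SE of 0.39 (q = 0.244) and Chaf1b at 0.69 with an SE of 0.33 (q = 0.225).

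The list of 22 S phase genes had 6 higher and 0 lower at 5 dpi in the authors' deposited table, with 21 above 0 and a median of 0.28. Tk1, the thymidine kinase of dividing cells, was at 1.93 with an SE of 0.31 (q = 1.83e-07), and the helicase subunit gene Mcm6 at 0.45 with an SE of 0.08 (q = 4.07e-06), in the authors' deposited table. Ccna2, a cyclin of S phase, was at 0.83 with an SE of 0.21 (q = 0.00351) and Cdc6, which loads the helicase, at 0.97 with an SE of 0.27 (q = 0.0116) in the authors' deposited table. At 12 weeks 0 genes of these 4 lists were called; 21 of the 22 S phase genes were again above 0, with a median of 0.07, and Tk1 was at 1.202 (q = 0.157, the authors' deposited table).

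**Figure D5:**
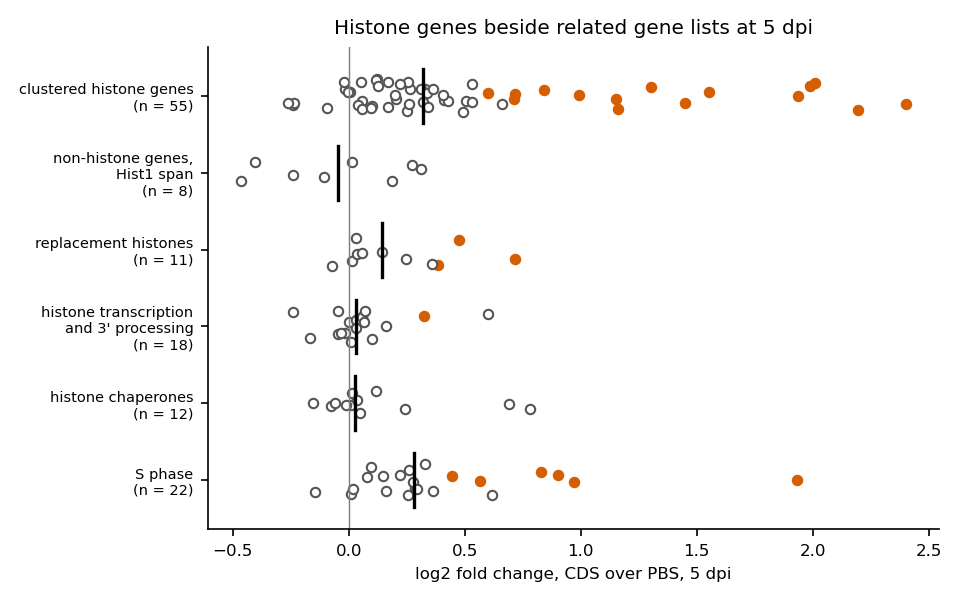
Log2 fold change at 5 dpi for the clustered histone genes, the non-histone genes of the Hist1 span and the lists of related genes; each point is 1 gene, filled where q was under 0.05, and each bar is a median. The clustered histones (median 0.32) and S phase genes (median 0.28) lie furthest right, and the chaperones hold no filled point.

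Markers of other cell types were looked up in 7 lists. In the authors' deposited table at 5 dpi, 5 of 5 markers of oligodendrocyte precursors were lower, from -3.65 to -1.08, and 5 of 5 microglial markers were lower, from -2.70 to -1.21. Of 4 astrocyte markers 1 was higher, Gfap at 1.497, and the 2 listed of 5 monocyte and lymphocyte markers were higher, Itgal at 1.58 and Ccr2 at 1.26. Of 2 neuroblast markers 1 was lower, Dcx at -0.66 (q = 0.0235, the authors' deposited table). None of 3 endothelial markers, from -0.09 to 0.01, or of 4 cortical excitatory neuron markers, from -0.20 to 0.43, was called in the authors' deposited table. At 12 weeks the 5 precursor markers were still lower and the microglial markers, from -0.47 to -0.24, were not called. The part of these cell types in the histone values was not tested.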

How the data were processed

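The authors deposited 2 comparison tables, 1 per time, which per the file headers list log2 fold changes (CDS over PBS) with a q-value for every gene. The submitters' processing notes name STAR, featureCounts, DESeq2 and GRCm38.p5; for versions, strand handling and filters, the answer is not given in the sources used here. Columns of per-sample values left unused numbered 0. Depth per sample is unknown, so no interval that needs counts is given.

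No new test was run: calls use the deposited q under 0.05. Taking q as a Benjamini-Hochberg adjustment over 20375 genes, each p was taken as q multiplied by its rank and divided by the number of genes. The implied standard error is the size of the log2 fold change over z. This step was run on simulated data whose q were made by the same adjustment. That run cannot show whether the deposited q were made so. Gene models, hairpins and 50-base sharing came from GENCODE M21, and promoters from RefSeq, GRCm38.p6. Scripts used Python 3.11.15, pandas 2.3.3, numpy 2.4.6, scipy 1.17.1 and matplotlib 3.10.9.

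The members and lists were chosen with earlier results of these data known. Genes named were the called members, the highest and lowest of each type at each time, those beside the threshold and up to 4 genes of smallest q per list; others were named after their values were seen. Sequences are those of members with the smallest or, among the uncalled, the largest q of their type, and Hist1h2ag, Hist1h3c and Hist1h3g, added after the values were seen. Alternatives were other q limits, a fold limit, adjustment over protein-coding genes, and subsets of members.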

Additional observations from a re-analysis of the deposited data

How the results depend on the processing

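Of 30 comparisons of a count or median with an alternative setting, 26 stayed within the limit set, which was 1.5 times for a count and the members' median implied SE of 0.18 for a median, 4 moved further and 0 reversed. Keeping members with at most 50% of their 50-base stretches shared, chosen after seeing the data, left 2 calls among 29 members at 5 dpi. That is 6.90%, against 27.3% of all members, 5.92% of all genes called in either direction and 2.75% called higher. The median at 5 dpi fell from 0.32 to 0.17 in the same setting, and the cause was not tested. The list of histone transcription and 3′ processing had 0 calls at q under 0.01 and 2 at q under 0.1, and the S phase list had 3 at q under 0.01; the limit itself sets these counts. The 15 calls at 5 dpi were 15 at q under 0.01 and 18 at q under 0.1. With p adjusted over protein-coding genes 16 of 54 members were called, Hist1h3d being the one gained (q = 0.0468). The 12-week count was 0 in every setting run. It could not move with the q or fold limits, as the smallest q of a member was 0.41. Counts for the histone chaperones and for the non-histone genes of the Hist1 span could not move either, as every q there lay above 0.1. These comparisons say nothing about stability.

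No paired analysis was possible because the deposited tables hold no per-sample values. No replicate was left out for the same reason, and the influence of a single sample on any value is unknown. The deposited q-values rest on 5 samples a group, and values of single histone copies are limited by the reads they share.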
